A study of Homo sapiens with 8 samples.

Results

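The 10 genes described here are receptors of the tumour necrosis factor (TNF) superfamily on B cells and 1 ligand. These genes were taken by gene symbol and followed through BTK inhibition and a KLHL14 guide in lymphoma cells. Both the genes and the lists below were chosen with earlier results of these data known. Their counts beside the shares of all genes are therefore descriptions and no test of an excess. They were the receptors TNFRSF13B (TACI), TNFRSF13C (BAFF receptor), TNFRSF17 (BCMA), CD40, CD27, TNFRSF1B (TNFR2), TNFRSF8 (CD30), TNFRSF9 (4-1BB) and TNFRSF21 (DR6), and CD70, the ligand of CD27. All 10 were found among the 25066 genes of the deposited table, and 9 of them were among the 12531 genes with a mean level high enough to be tested. TNFRSF9 was below that level. TNFRSF8, TNFRSF1B and TNFRSF9 lie on chromosome 1, and the others on chromosomes 6 (TNFRSF21), 12 (CD27), 16 (TNFRSF17), 17 (TNFRSF13B), 19 (CD70), 20 (CD40) and 22 (TNFRSF13C).

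The RNA came from TMD8, a human diffuse large B cell lymphoma line of the activated (ABC) subtype. The cells carried lentiviral Cas9 in every group. One kind of cell stably expressed a control guide (sgCTRL; genotype given as KLHL14 +/+) and the other a guide against KLHL14 (sgKLHL14; genotype given as KLHL14 -/-), a substrate adaptor of a cullin-3 ubiquitin ligase. Each kind was left for 24 h with the solvent DMSO or with ibrutinib at 2 nM, which blocks Bruton tyrosine kinase (BTK) covalently. This gave 4 groups of 2 libraries. Whether the guide cells were a clone or a pool, and whether the 2 libraries of a group were grown apart, is not given in the sources used here. The p-values therefore rest on a spread between samples that may be technical.

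Receptors of this family have no enzyme activity of their own. Binding of a trimeric ligand lets most of them recruit TRAF adaptors and switch on the classical or the alternative NF-kB pathway, and some carry a death domain instead. In B cells the BAFF and APRIL receptors support survival and plasma cell life, CD40 carries help from T cells, and CD27 marks memory B cells and plasmablasts. CD70, the ligand of CD27, appears on activated lymphocytes and on many lymphomas. BTK acts in another branch, between the B cell receptor and classical NF-kB.

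Depth ran from 12333876 to 23467110 reads per library, and the 2 libraries of a group had a correlation of 0.994 to 0.996 across genes. KLHL14 mRNA was not lower with its guide. It stood at 0.20 above sgCTRL in DMSO (log2 scale, adjusted p = 0.107 by limma) and was higher by 0.86 in ibrutinib, so the table does not check the label, and "sgKLHL14" below means the libraries labelled so. Of 10 B cell identity markers 9 were tested. With ibrutinib 5 were higher and 1 lower for sgCTRL, and 6 higher and 1 lower for sgKLHL14. The list's summed linear level was 82917 to 89097 in DMSO and 118228 to 122071 in ibrutinib. MS4A1 held the largest part of it (log2 15.22 to 15.42 in DMSO and 15.79 to 15.87 in ibrutinib). EBF1 went the other way, at 11.44 to 11.71 in DMSO and 11.08 to 11.37 in ibrutinib. Of the 9 plasma cell markers in the table, TNFRSF17 among them, 7 were higher with ibrutinib for either guide and 2 lower. Of all genes tested, 18.1% were higher and 17.0% lower with sgCTRL, and 19.9% and 19.4% with sgKLHL14. These shares apply to every marker list here. The plasma cell list had a median log2 change of 0.41 for sgCTRL and 0.59 for sgKLHL14. Its sum was 70896 to 80914 in DMSO and 45336 to 61133 in ibrutinib. Most of its sum was IRF4, 1 of the 2 markers that fell (log2 15.89 to 16.09 in DMSO and 15.03 to 15.50 in ibrutinib). The sum over 12 T cell markers was 48.8 to 64.4 in DMSO and 101 to 123 in ibrutinib, with CD3D, CD3E, CD28, TRAT1 and ICOS at 0 reads in all 8 libraries. Its 2 tested genes were CD4 (1.74 and 1.32 with ibrutinib, both called) and CD8A (0.63, adjusted p = 0.0731 by limma, and 0.74, adjusted p = 0.0323), and each of these 3 calls ended in at least 1 refit without a library (adjusted p = 0.0521 to 0.178). NK cell markers (7 genes, sum 10.5 to 24.4) and myeloid markers (10 genes, sum 15.3 to 34.1) had 0 tested members, with KLRD1 in the first list and S100A8, S100A9, FCGR3A and MPO in the second at 0 reads. Of 10 epithelial and fibroblast markers 5 were tested, and their sum was 1467 to 1833 with KRT19 at 0. Most of that sum was CDH1, while with ibrutinib 2 of the 5 were higher and 1 lower for sgCTRL, and 3 higher and 1 lower for sgKLHL14 (DCN 1.94 and 1.55, COL1A1 1.05 and 0.91, KRT8 -0.47 and -0.60). KRT8 lost its call for sgCTRL without replicate 1 of DMSO (adjusted p = 0.0868 by limma) or of ibrutinib (0.103). The part of these markers in the receptor values was not tested, and in bulk RNA fewer cells of a type and less RNA per cell cannot be told apart.

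Per transcript length, TACI was the most abundant of the 9 tested genes in every group and CD30 the least. The mean log2 level per kb in sgCTRL DMSO was 11.53 for TNFRSF13B, 10.47 for CD70, 9.59 for CD40 and 9.35 for TNFRSF1B. The lower part of the order was TNFRSF21 at 7.57, TNFRSF17 at 7.15, TNFRSF13C at 6.80, CD27 at 5.48 and TNFRSF8 at 2.84. No neighbours in that order had overlapping libraries in sgCTRL DMSO. In sgKLHL14 DMSO, TNFRSF13C at 7.50 per kb stood above TNFRSF21 at 7.39 and TNFRSF17 at 7.24. In sgKLHL14 ibrutinib, TNFRSF21 reached 8.98, TNFRSF17 8.27, TNFRSF13C 8.21 and CD27 7.97, and the libraries of TNFRSF17 and TNFRSF13C overlapped. Lengths came from 1 transcript per gene in an annotation of another build than the counting used, so differences between genes are approximate. TNFRSF9 had 0 to 4 reads in each library, and at this depth no difference in it was detectable.

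**Figure D1:**
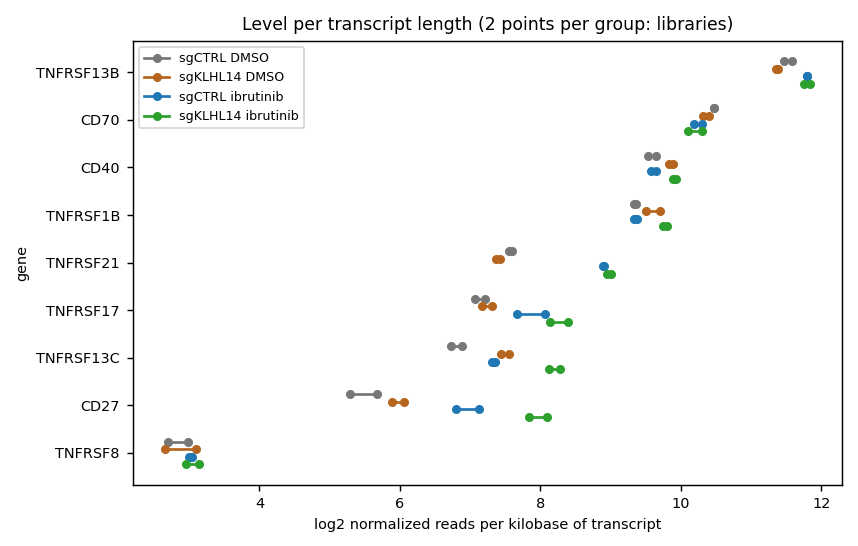
Level of the 9 tested genes per kb of transcript (log2 scale, horizontal axis) in each of the 4 groups, with 1 point per library. TNFRSF13B is at the right in every group (11.53 per kb in sgCTRL DMSO) and TNFRSF8 at the left (2.84), while CD27 moves from 5.48 in sgCTRL DMSO to 7.97 in sgKLHL14 ibrutinib.

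Ibrutinib was accompanied by more mRNA of 5 receptors with either guide: TACI, BAFF receptor, BCMA, CD27 and DR6. The largest rises were those of CD27 (2.79-fold with sgCTRL and 3.99-fold with sgKLHL14) and TNFRSF21 (2.52-fold and 3.00-fold). CD70, the ligand of CD27, was slightly lower with sgCTRL, and CD40, TNFRSF1B and TNFRSF8 did not pass the test. With sgCTRL, 5 of the 9 tested members were higher, where 18.1% of all 12531 genes were, and 1 was lower, where 17.0% were (limma, adjusted p under 0.05). With sgKLHL14, 5 were higher against 19.9% of all genes, and 0 were lower against 19.4% (limma; 0 also before adjustment and by the alternative voom). The median log2 change of the 9 members was 0.27 with sgCTRL and 0.43 with sgKLHL14, beside 0.018 and 0.010 over all genes tested. Because the members were chosen with earlier results known, these counts and medians do not test for an excess.

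**Figure D2:**
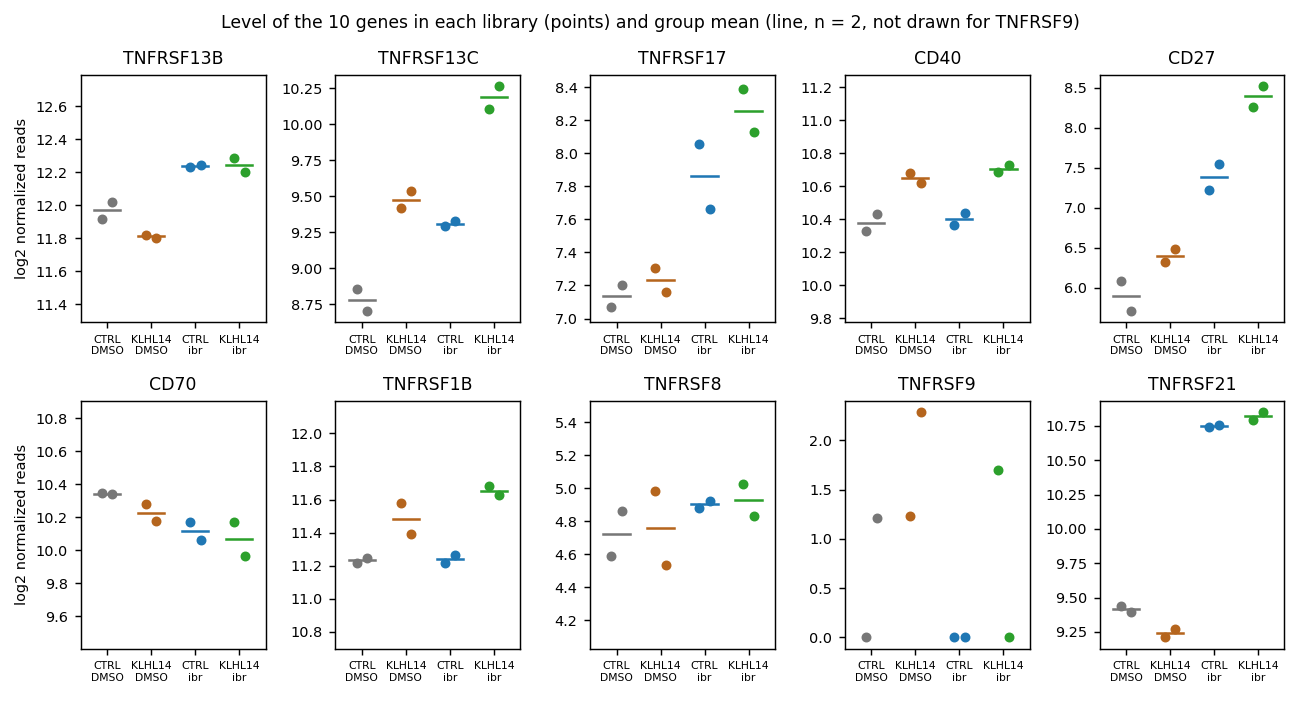
Log2 normalized reads (vertical axis, 1 panel per gene, each with its own range) of the 10 genes in each library (points) with the group mean as a line. TNFRSF21 and CD27 in both ibrutinib groups lie above both DMSO groups (CD27 5.71 to 6.48 in DMSO, 7.22 to 8.52 in ibrutinib), while CD40 separates by guide instead.

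The 3 receptors for BAFF and APRIL all rose. TNFRSF13B, the receptor for both ligands that limits B cell numbers and supports antibody class switching, stood at 11.92 and 12.02 in sgCTRL DMSO and at 12.23 and 12.25 in sgCTRL ibrutinib (log2 normalized reads). In sgKLHL14 it was at 11.82 and 11.80 in DMSO and at 12.28 and 12.20 in ibrutinib. The ibrutinib libraries lay above all 4 DMSO libraries. The rise was 0.27 (SE 0.061, adjusted p = 0.00168, limma) with sgCTRL and 0.43 (adjusted p = 1.37e-05) with sgKLHL14. An annotated pseudogene, TBC1D27P, shares 615 exon bases with TNFRSF13B on the same strand, and its reads could not be separated.

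TNFRSF13C, the receptor dedicated to BAFF that keeps mature B cells alive, read 8.86 and 8.71 in sgCTRL DMSO and 9.29 and 9.33 in sgCTRL ibrutinib. With sgKLHL14 it read 9.42 and 9.53 in DMSO and 10.11 and 10.27 in ibrutinib. Its 4 groups did not overlap, and the DMSO libraries of sgKLHL14 already lay above the ibrutinib libraries of sgCTRL. The rise was 0.53 (SE 0.093, adjusted p = 0.000190, limma) with sgCTRL and 0.71 (adjusted p = 6.13e-06) with sgKLHL14, that is 1.44-fold and 1.64-fold.

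TNFRSF17, the receptor that plasma cells rely on, had few reads, 67 to 206 per library. With sgCTRL its log2 level was 7.07 and 7.21 in DMSO and 8.06 and 7.66 in ibrutinib. With sgKLHL14 it was 7.31 and 7.16, then 8.39 and 8.13. Every ibrutinib library was above every DMSO library, although the sgCTRL ibrutinib pair differed by more than the other pairs. The change was 0.72 (SE 0.16, adjusted p = 0.00142, limma) with sgCTRL and 1.03 (adjusted p = 3.89e-05) with sgKLHL14. Other plasma cell markers were higher too, such as IGJ, the joining chain of secreted antibodies (2.83 and 2.58), and CD38 (1.54 and 1.45), while IRF4 (-0.88 and -0.57) and SLAMF7 (-1.58 and -1.06) were lower. Their part in the level of TNFRSF17 was not tested.

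With sgCTRL, CD27 rose and its ligand CD70 fell. CD27 stood at 6.09 and 5.71 in sgCTRL DMSO and at 7.22 and 7.54 in sgCTRL ibrutinib. With sgKLHL14 it was at 6.32 and 6.48 in DMSO and at 8.26 and 8.52 in ibrutinib, the highest pair of the 4. The rise was 1.48 (SE 0.19, adjusted p = 4.58e-06, limma) with sgCTRL and 2.00 (adjusted p = 8.61e-08) with sgKLHL14, on 34 to 189 reads per library. T cells also carry CD27, and their defining markers CD3D, CD3E and CD28 were at 0 reads in all 8 libraries while the T cell sum above was higher in ibrutinib.

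CD27 shares 522 exon bases with its antisense transcript CD27-AS1 and 29 with the neighbouring gene TAPBPL, and whether the reads were counted by strand is not given. CD27-AS1, chosen here after its values were seen and listed in the table as LOC678655, stood between 8.51 and 8.97 in the 8 libraries. Its change with ibrutinib was 0.21 (adjusted p = 0.181, limma) with sgCTRL and 0.23 (adjusted p = 0.133) with sgKLHL14, smaller than that of CD27. Averaged over guides, CD27-AS1 was called higher (0.22, adjusted p = 0.0343), on 182 to 341 reads per library. TAPBPL, chosen likewise, rose by 0.39 (adjusted p = 0.0141) and 0.46 (adjusted p = 0.00415).

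With sgCTRL, CD70 read 10.34 and 10.34 in DMSO and 10.17 and 10.06 in ibrutinib. With sgKLHL14 it read 10.28 and 10.18, then 10.17 and 9.97. Both ibrutinib pairs lay below their DMSO pairs. With sgCTRL it fell by 0.23 on the log2 scale (SE 0.082, adjusted p = 0.0390, limma), a call lost without any 1 of the 4 sgCTRL libraries (adjusted p = 0.0615 to 0.274). With sgKLHL14 the change was -0.16 (adjusted p = 0.132), and -0.26 (adjusted p = 0.0372) without replicate 1 of its ibrutinib group. Averaged over guides it was -0.19 (adjusted p = 0.00911), and the call ended without replicate 2 of either ibrutinib group (adjusted p = 0.0560 and 0.0614).

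TNFRSF21, a death domain receptor that restrains B and T cell responses in mice, was the member with the clearest separation. It stood at 9.44 and 9.40 in sgCTRL DMSO against 10.75 and 10.76 in sgCTRL ibrutinib. In sgKLHL14 it was at 9.21 and 9.27 in DMSO against 10.80 and 10.85 in ibrutinib. The gap between treatments exceeded 1 log2 unit for every pair of libraries, while the SD within a group was 0.0092 to 0.040 (n = 2). The rise was 1.34 (SE 0.074, adjusted p = 9.14e-11, limma) with sgCTRL and 1.58 (adjusted p = 1.07e-11) with sgKLHL14.

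CD40, TNFRSF1B and TNFRSF8 gave no call with ibrutinib. CD40 read 10.33 and 10.43 in sgCTRL DMSO and 10.36 and 10.44 in sgCTRL ibrutinib, a change of 0.021 (adjusted p = 0.844, 95% interval -0.13 to 0.17, limma). TNFRSF1B, the TNF receptor without a death domain, changed by 0.008 (adjusted p = 0.941) with sgCTRL and by 0.17 (adjusted p = 0.0573) with sgKLHL14. The latter passed without replicate 1 of sgKLHL14 DMSO (0.26, adjusted p = 0.00801), the higher library of its pair. TNFRSF8, an activation receptor of lymphocytes, had 12 to 27 reads per library, and its changes were 0.18 (SE 0.34, adjusted p = 0.715) and 0.17 (adjusted p = 0.727).

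**Figure D3:**
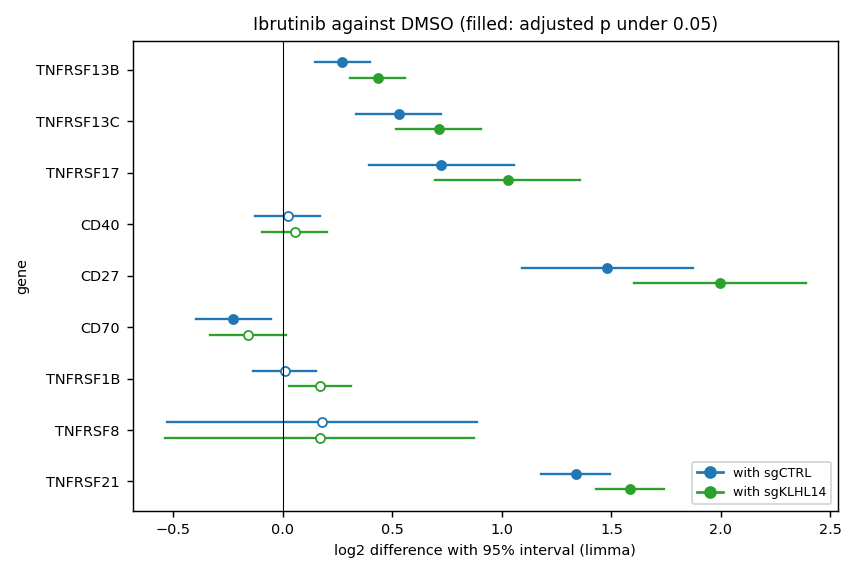
Log2 change with ibrutinib (horizontal axis, limma estimate with 95% interval) of the 9 tested genes for sgCTRL and sgKLHL14, filled where the adjusted p was under 0.05. CD27 (1.48 and 2.00) and TNFRSF21 (1.34 and 1.58) lie farthest to the right, and CD70 (-0.23 and -0.16) is left of 0.

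Promoter sequences show what lies around the start sites of the 3 members with a matched promoter that rose with ibrutinib, and of TNFRSF1B, which differed with the guide instead. Entries in RefSeq (GRCh38.p14, 250 bases before to 50 after the start) were matched for 6 of the 10 members: CD27, TNFRSF13B, TNFRSF8, TNFRSF1B, TNFRSF9 and TNFRSF21. The 4 printed are 5′ to 3′ on the gene's strand, with letters that match 1 of 5 motifs searched on both strands in capitals. The coordinates are of that build, not of the hg19 build used for counting. For CD27 the RefSeq window ends before the start of the gene in GENCODE (chr12:6444867-6451718), so it surrounds a start upstream of the one annotated there, while the windows of TNFRSF21 and TNFRSF13B include the gene's first base in GENCODE (chr6:47231532-47309905 and chr17:16929816-16972118, both on the minus strand), as does that of TNFRSF1B (chr1:12167003-12209228).
CD27, chr12:6443642-6443941, plus strand: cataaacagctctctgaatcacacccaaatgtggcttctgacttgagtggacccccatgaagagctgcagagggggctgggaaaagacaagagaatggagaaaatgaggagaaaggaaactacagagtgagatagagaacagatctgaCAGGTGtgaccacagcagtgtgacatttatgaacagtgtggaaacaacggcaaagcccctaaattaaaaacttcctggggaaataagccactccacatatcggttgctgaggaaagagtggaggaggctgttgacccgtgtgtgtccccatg
TNFRSF21, chr6:47309856-47310155, minus strand: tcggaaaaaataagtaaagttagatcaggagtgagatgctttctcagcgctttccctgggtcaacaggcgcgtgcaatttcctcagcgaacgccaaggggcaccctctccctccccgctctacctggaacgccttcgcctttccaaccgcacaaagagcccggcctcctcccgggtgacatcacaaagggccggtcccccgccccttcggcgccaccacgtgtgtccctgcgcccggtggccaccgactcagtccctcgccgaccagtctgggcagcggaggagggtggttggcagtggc
TNFRSF13B, chr17:16972069-16972368, minus strand: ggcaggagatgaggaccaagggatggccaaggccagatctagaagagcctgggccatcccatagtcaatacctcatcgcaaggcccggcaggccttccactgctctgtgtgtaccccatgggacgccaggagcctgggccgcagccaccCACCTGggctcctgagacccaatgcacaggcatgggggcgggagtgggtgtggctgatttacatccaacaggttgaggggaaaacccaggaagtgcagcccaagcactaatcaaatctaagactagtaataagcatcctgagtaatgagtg
TNFRSF1B, chr1:12166741-12167040, plus strand: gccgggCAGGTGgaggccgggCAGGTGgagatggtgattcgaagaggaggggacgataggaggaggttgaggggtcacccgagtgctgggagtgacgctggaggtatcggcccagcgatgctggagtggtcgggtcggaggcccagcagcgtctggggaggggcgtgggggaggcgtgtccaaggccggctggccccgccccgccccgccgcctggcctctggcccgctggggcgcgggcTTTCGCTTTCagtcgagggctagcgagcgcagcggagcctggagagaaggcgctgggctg

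The motifs were the E-box CAGGTG bound by E2A, the interferon response element GAAANNGAAA, the ETS-IRF composite element GGAANNGAAA, the FOXO site GTAAACA and the NF-kB consensus, and the interferon and ETS-IRF elements share most of their letters. CAGGTG was in 20.6% of all 35116 promoters of this length and in 4 of the 6 of members, among them CD27 (first base at -102 from the start), TNFRSF13B (-101) and TNFRSF1B (-244 and -229). TNFRSF1B also held GAAANNGAAA at -10 on the minus strand, a motif of 3.57% of promoters. The NF-kB consensus was in 11.3% of promoters and in 1 of the 6, TNFRSF9. The ETS-IRF element (2.82% of promoters) and the FOXO site (3.42%) were in 0 of the 6. TNFRSF21 held none of the 5 in this window, at 63.3% GC and 23 CpG, against 48% and 3 for CD27 and 72% and 27 for TNFRSF1B. A match describes letters and is no evidence of a bound site.

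With the KLHL14 guide, 4 receptors were higher in ibrutinib: BAFF receptor, CD27, CD40 and TNFRSF1B. In DMSO 1 passed the test, the BAFF receptor. TNFRSF13C was 1.62-fold higher in DMSO (log2 0.69, SE 0.093, adjusted p = 0.000235, limma) and 1.83-fold higher in ibrutinib (0.88, adjusted p = 8.72e-06), from the library values given above. In DMSO 1 of 9 members was higher, where 0.782% of all genes were, and 0 were lower, where 0.862% were (limma; 2 before adjustment, 0 by voom). In ibrutinib 4 were higher against 1.59%, and 0 were lower against 0.790% (0 before adjustment, 0 by voom). The members' median log2 difference was 0.095 in DMSO and 0.31 in ibrutinib, beside 0.003 and -0.0045 over all genes. Here too the choice of members with earlier results known means that the counts do not test for an excess.

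CD40, the receptor for T cell help, was at 10.33 and 10.43 with sgCTRL and 10.68 and 10.62 with sgKLHL14 in DMSO, and at 10.36 and 10.44 against 10.68 and 10.73 in ibrutinib. Every sgKLHL14 library lay above every sgCTRL library. The difference was 0.31 in ibrutinib (adjusted p = 0.0233, limma) and 0.27 in DMSO (adjusted p = 0.0604, 95% interval 0.12 to 0.42). The call in ibrutinib ended without any 1 of the 4 ibrutinib libraries (adjusted p = 0.0898 to 0.273), and that in DMSO passed without replicate 2 of sgKLHL14 (adjusted p = 0.0478).

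TNFRSF1B was at 11.22 and 11.25 with sgCTRL and 11.58 and 11.39 with sgKLHL14 in DMSO. In ibrutinib it was at 11.22 and 11.26 against 11.68 and 11.63. The 4 sgCTRL libraries lay close together over both treatments, and all sgKLHL14 libraries were above them. The difference was 0.41 in ibrutinib (SE 0.068, adjusted p = 0.00115, limma) and 0.25 in DMSO (adjusted p = 0.0700). Without replicate 2 of sgKLHL14 in DMSO, the lower of that pair, the latter was 0.35 (adjusted p = 0.00936).

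CD27 was 2.02-fold higher with sgKLHL14 in ibrutinib (log2 1.01, adjusted p = 0.00327, limma), and in DMSO the difference was 0.50 (adjusted p = 0.222). The call in ibrutinib ended without replicate 1 of sgCTRL (0.85, adjusted p = 0.0820) or replicate 2 of sgKLHL14 (0.88, adjusted p = 0.0788), at 91 to 189 reads per ibrutinib library. TNFRSF17 differed by 0.40 in ibrutinib (adjusted p = 0.256) and TNFRSF21 by 0.072 (adjusted p = 0.774). TNFRSF13B differed by -0.16 in DMSO (adjusted p = 0.232) and by 0.003 in ibrutinib (adjusted p = 0.992). For CD70 the values were -0.11 and -0.048, and for TNFRSF8 they were 0.036 and 0.024, with no call.

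**Figure D4:**
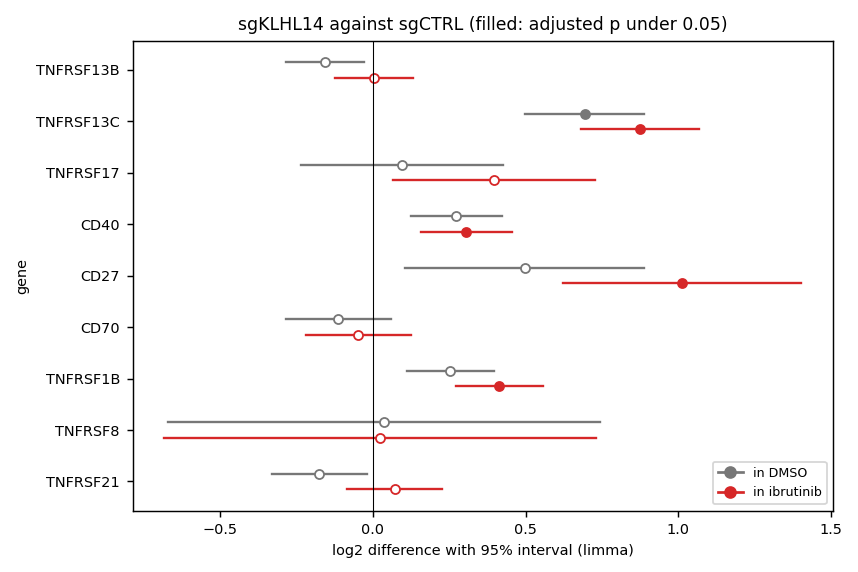
Log2 difference between sgKLHL14 and sgCTRL (horizontal axis, limma estimate with 95% interval) of the 9 tested genes in DMSO and in ibrutinib, filled where the adjusted p was under 0.05. TNFRSF13C is filled in both (0.69 and 0.88), and CD40 (0.31), CD27 (1.01) and TNFRSF1B (0.41) in ibrutinib.

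Whether the 2 guides differed in their response to ibrutinib was tested as the difference between both changes, and 0 of 9 members passed (0.0239% of all genes did). At an unadjusted p under 0.05 there was 1, TNFRSF21, whose response was larger with sgKLHL14 by 0.25 (limma's moderated test, adjusted p = 0.873, 95% interval 0.027 to 0.47). A second method, voom, also called 0 after adjustment and 1 before it. For CD27 the difference was 0.52 (adjusted p = 0.907, 95% interval -0.037 to 1.07), an interval that includes no difference and a response larger by more than 1 log2 unit. TNFRSF17 differed by 0.30, TNFRSF13C by 0.18 and TNFRSF13B by 0.16, with adjusted p = 0.936, 0.936 and 0.907. The members' median was 0.16 beside -0.0045 over all genes.

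The ligands of the family moved in both directions. Of 17 listed ligands other than CD70, 7 were tested, and with sgCTRL 2 were higher and 2 lower, while with sgKLHL14 3 were higher and 2 lower. Beside them stand the shares of all genes, 18.1% higher and 17.0% lower with sgCTRL and 19.9% and 19.4% with sgKLHL14, which also apply to the lists that follow. LTB, which forms lymphotoxin with LTA, rose from 7.54 to 7.84 in the DMSO libraries to 9.76 to 10.01 in ibrutinib, by 2.20 with sgCTRL (adjusted p = 6.06e-12, limma) and 2.21 with sgKLHL14. LTA itself fell by 0.80 on the log2 scale with sgCTRL and by 0.58 with sgKLHL14. TNF, a ligand of TNFRSF1B, fell by 1.52 on the log2 scale with sgCTRL (adjusted p = 2.52e-09) and by 1.06 with sgKLHL14. TNFSF13 (APRIL), a ligand of TNFRSF13B and TNFRSF17, rose by 1.13 (adjusted p = 0.00358) and 0.90 (adjusted p = 0.0146) on 13 to 50 reads per library. Without replicate 1 of sgCTRL DMSO the former was 0.73 (adjusted p = 0.0775). TNFSF13B (BAFF) had 2 to 8 reads per library and was not tested. TNFSF4, another riser with sgKLHL14 (1.08, adjusted p = 0.0143), lost its call without replicate 2 of DMSO or replicate 1 of ibrutinib (adjusted p = 0.145 and 0.149). With the KLHL14 guide 0 of the 7 passed in DMSO and 0 in ibrutinib.

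Among 20 other receptors of the family 8 were tested, with 2 higher and 0 lower for sgCTRL and 2 higher and 1 lower for sgKLHL14, where 18.1% to 19.9% of all genes were higher. TNFRSF14 (HVEM), the receptor of LIGHT and BTLA, rose by 0.62 (adjusted p = 0.000876, limma) with sgCTRL and 0.57 (adjusted p = 0.00171) with sgKLHL14. RELT was the other riser with sgCTRL (0.23, adjusted p = 0.0268) and FAS, the death receptor, with sgKLHL14 (0.49, adjusted p = 0.0158). Both calls ended when 1 library was left out, RELT without any 1 of the 4 sgCTRL libraries (adjusted p = 0.0678 to 0.199) and FAS without any sgKLHL14 library but replicate 1 of ibrutinib (adjusted p = 0.0503 to 0.165). TNFRSF11A (RANK) fell by 0.74 on the log2 scale with sgKLHL14 and was lower with that guide in ibrutinib (-0.91, adjusted p = 0.00912), the 1 member of the list that differed between guides. It lost the first call without replicate 1 of sgKLHL14 ibrutinib (-0.49, adjusted p = 0.0636), and the second without that library (-0.66, adjusted p = 0.142) or replicate 1 of sgCTRL ibrutinib (-0.84, adjusted p = 0.105). LTBR, the receptor of lymphotoxin made with LTB, was at 0 reads in every library, and TNFRSF1A, the death domain receptor of TNF, at 0 or 1 read.

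**Figure D5:**
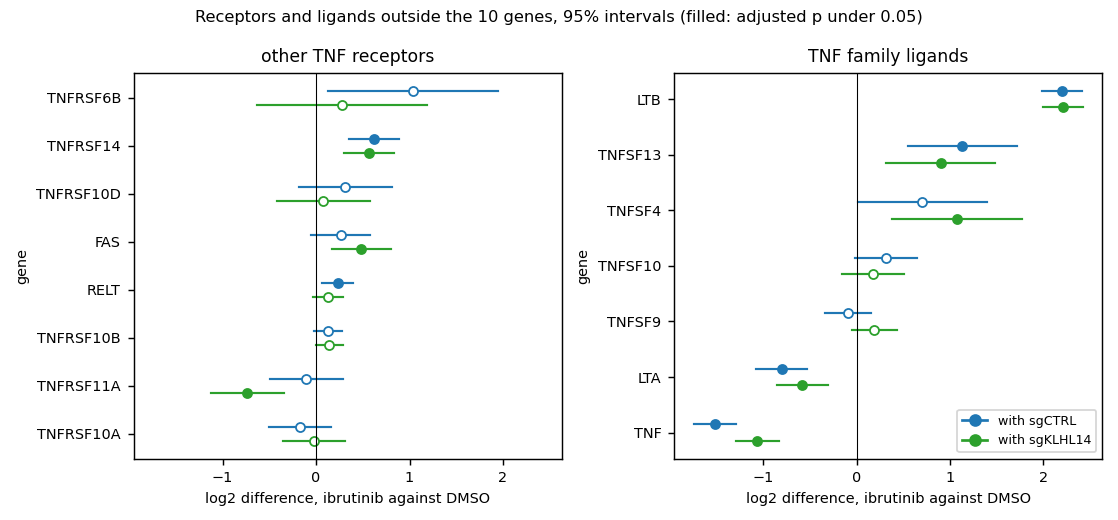
Log2 change with ibrutinib (horizontal axis, limma estimate with 95% interval) of the 8 tested other receptors (left) and 7 tested ligands (right) of the family with either guide, filled where the adjusted p was under 0.05. LTB lies farthest to the right (2.20 and 2.21) and TNF farthest to the left (-1.52 and -1.06), and TNFRSF14 (0.62 and 0.57) is filled with both guides.

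Of 13 tested genes listed for the alternative NF-kB pathway and its targets, 9 were lower in ibrutinib with sgCTRL and 10 with sgKLHL14. Of all genes, 17.0% and 19.4% were lower, and 0 of the 13 were higher. Since this list was chosen with earlier results of these data known, its counts do not test for an excess. Signalling through the receptors was not measured. The list's median was -0.41 and -0.32, beside 0.018 and 0.010 over all genes. NFKB2, the precursor of p52, fell by 0.48 on the log2 scale (adjusted p = 1.20e-05, limma) and by 0.42, and MAP3K14, the NF-kB-inducing kinase, by 0.30 and 0.32. CCL22, a chemokine target, fell by 3.55 on the log2 scale with sgCTRL and fell by 4.19 with sgKLHL14. It had 101 to 231 reads per DMSO library but 5 to 12 per ibrutinib library, so the size of the fall is imprecise. CXCR5, BCL2A1, CD83, ICAM1, BCL2L1 and NFKBIE, several of which also answer to classical NF-kB, fell with both guides, and RELB with sgKLHL14 (-0.19). With the guide in ibrutinib, BCL2L1 (0.42, adjusted p = 0.00279) and CXCR5 (0.28, adjusted p = 0.0349) were higher. In DMSO, CCL17 was higher (1.57, adjusted p = 0.00937 by limma, on 10 to 51 reads per library) and CD83 lower (-0.30, adjusted p = 0.0350). Of these 4, each lost its call in at least 1 refit that left out a library: BCL2L1 without replicate 2 of sgCTRL ibrutinib (adjusted p = 0.0614), CXCR5 without any 1 ibrutinib library (0.0670 to 0.280), CCL17 without replicate 2 of sgCTRL DMSO (0.0587) or replicate 1 of sgKLHL14 DMSO (0.171), and CD83 without several (0.0634 to 0.325).

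TRAF adaptors and receptor-proximal regulators were mixed. All 23 of the 26 listed genes that the table held were tested, with 4 higher and 8 lower for sgCTRL and 4 higher and 6 lower for sgKLHL14. The share that was higher is near that of all genes (18.1% and 19.9%), and 17.0% and 19.4% of all genes were lower. TNFAIP3 (A20), a brake on NF-kB, fell by 0.87 on the log2 scale (adjusted p = 1.39e-09, limma) and by 0.72, and TRAF1, an adaptor induced by NF-kB, fell by 0.82 and by 0.72. TRAF4 rose by 0.54 and 0.49, RIPK1 by 0.34 and 0.43, TRADD by 0.48 and 0.51, and TRAF3, which restrains alternative signalling, by 0.19 with either guide. TNFAIP3 was the 1 gene of the list that was higher with the KLHL14 guide in ibrutinib (0.26, adjusted p = 0.0233), and the call ended without any 1 of the 4 ibrutinib libraries (adjusted p = 0.0805 to 0.341). In DMSO 0 of the 23 passed.

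Among 7 tested proteases that can shed such receptors, 1 was higher with ibrutinib for each guide, a different gene for each, and 0 were lower. The share that was higher is near that of all genes (18.1% and 19.9%), and 17.0% and 19.4% of all genes were lower. PSENEN, a subunit of the gamma-secretase that cleaves BCMA, was the 1 for sgCTRL (0.31, adjusted p = 0.0139, limma), and ADAM10, which cleaves TACI, for sgKLHL14 (0.27, adjusted p = 0.00810). PSEN2 was higher with the guide in ibrutinib (0.66, adjusted p = 0.0157). Each lost its call without 1 library: PSENEN without replicate 1 of sgCTRL DMSO or replicate 2 of sgCTRL ibrutinib (adjusted p = 0.180 and 0.114), ADAM10 without replicate 1 of sgKLHL14 DMSO or replicate 2 of sgKLHL14 ibrutinib (0.0811 and 0.0984), and PSEN2 without 3 of the 4 ibrutinib libraries (0.0608 to 0.204).

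Other genes with a like pattern were found by the root mean square difference between centred log2 levels over the 8 libraries, a description with no test. CD27, which itself varied by 0.97 (root mean square around its mean), was nearest to PLEKHG7 (0.233), ST14 (0.237) and RNASE6 (0.245). TNFRSF13C (0.51) was nearest to SPP1, the secreted phosphoprotein osteopontin (0.101), PDE9A (0.134) and PM20D1 (0.149). With sgCTRL, SPP1 read 8.66 and 8.57 in DMSO and 9.24 and 9.25 in ibrutinib. With sgKLHL14 it read 9.18 and 9.14, then 9.87 and 10.02. It was lowest and highest in the same groups as TNFRSF13C, for which it was chosen as nearest. Unlike TNFRSF13C, it was lower in sgKLHL14 DMSO than in sgCTRL ibrutinib. TNFRSF21 (0.73) was nearest to CDC42BPB (0.0725), the interferon-induced IFIT2 (0.0837) and the lymphocyte receptor GPR18 (0.0844). TNFRSF17 (0.48) was nearest to FOXL1 (0.112), CCDC24 (0.116) and GZMB (0.125). For TNFRSF13B (0.19) genes near it were SERINC3 (0.0303) and KCTD7 (0.0350), and for CD70 (0.12) they were KCMF1 (0.0364), METTL9 (0.0419) and SNRPB2 (0.0434).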

How the data were processed

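Gene expression was measured by RNA-seq in 8 libraries of TMD8 cells, 2 for each of 4 groups taken from the labels. The submitters' processing notes name bcl2fastq, STAR and HTSeq as tools and hg19 as the build. For versions, settings, annotation, use of strand and scaling, the sources used here give nothing. The table the authors deposited held other values than counts, namely log2 normalized reads for 25066 genes, and a line of total reads that entered no test. Within 6e-04 on the log2 scale, every value was a whole read number multiplied by 1 factor per library, which was 1.16 to 2.19, and genes without reads were listed at 0. A floor of 3 reads lay at log2 1.80 to 2.71, so deeper libraries measure low genes with less counting error. The table had 0 columns of other samples.

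The 12531 genes with a mean log2 value of at least 4.2 entered a model of the 4 groups (limma 3.58.1, R 4.3.3) with a variance prior that follows the mean (4 residual and 14.9 prior degrees of freedom). A gene was called where its p, adjusted over all of them after Benjamini and Hochberg, was under 0.05. The fit was also run on simulated counts with the same spread for all genes and few changed genes. These data differ from that setting, so the run gives no error rate for them. Alternatives were other filters on low values, a pseudocount of 16, quantile and median scaling, no variance trend, thinned reads, fits on the groups compared, a replicate block and leaving out each library, and, added after seeing the data, voom and a filter at the median. Libraries of a group differed by more than sampling noise (chi-square per degree of freedom 2.10 to 7.44), so none was counted as a copy.

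The members, the 5 pathway lists (other receptors, ligands, TRAF adaptors and regulators, alternative NF-kB, shedding proteases) and the 6 marker lists were chosen with earlier results of these data known. Named are all members, KLHL14 and BTK, the called genes with the 4 smallest p of a list in each contrast, and for each member called for ibrutinib averaged over guides the 3 genes with an official symbol nearest in pattern. Other list genes were named after their values were seen. A gene that the rule takes is not reported here. Transcript lengths and exon overlaps came from GENCODE and promoters from RefSeq, both on GRCh38.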

Additional observations from a re-analysis of the deposited data

Results flagged for a closer look

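The targeted gene itself differed between guides in its response to ibrutinib. KLHL14 mRNA rose by 0.24 with sgCTRL and by 0.90 with sgKLHL14 on the log2 scale, and the difference of 0.66 passed the test of the difference (adjusted p = 0.00164, limma). It lost the call without the filter on low values (adjusted p = 0.210) and without the variance trend (adjusted p = 0.488). The drug target BTK rose by 0.17 (adjusted p = 0.0282) and 0.28 (adjusted p = 0.000585), with a difference of 0.12 that did not pass (adjusted p = 0.936). For sgCTRL the BTK call ended without the filter (adjusted p = 0.0633, limma), without the trend (0.0908) and with thinned reads (0.0536). That call also ended without replicate 2 of sgCTRL DMSO (0.137), or without replicate 1 (0.19) or 2 (0.145) of sgCTRL ibrutinib (log2 rises in brackets).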

How the results depend on the processing

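The 22 called changes of members were refitted 412 times under the alternatives, of which 392 kept the call, 20 lost it and 0 reversed. For the KLHL14 guide in DMSO the number of members called was 1, and it was 0 without the variance trend, 2 with thinned reads, 3 with the replicate block and 1 to 3 when 1 library was left out (3 without replicate 2 of sgKLHL14 DMSO). For the guide in ibrutinib it was 4, and 2 without the filter on low values, 1 without the trend and 2 to 4 when 1 library was left out (2 without replicate 1 of sgCTRL or replicate 2 of sgKLHL14). With ibrutinib it was 5 to 6 for either guide over libraries left out, and 0 for the difference in response. The cause was not tested. TNFRSF13C in DMSO (adjusted p = 0.0724, limma), TNFRSF1B in ibrutinib (0.101), CD40 (0.147) and CD27 (0.0733) in ibrutinib and CD70 with ibrutinib for sgCTRL (0.111) lost their calls without the trend. Without the level filter CD40 (0.0786), CD27 (0.0904) and CD70 (0.0868) lost them.

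Over all genes, the guide in DMSO gave 206 calls, 47 without the filter, 25 without the trend, 368 with the block and 64 to 530 over libraries left out. The guide in ibrutinib gave 298, 155, 95 and 122 to 363 without the filter, without the trend and over libraries left out. Ibrutinib with sgCTRL gave 4403, and 2902 to 4631 over libraries left out. The difference in response gave 3, 0 without the filter, 0 without the trend and 5 with the block.

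Of 590 refits of the 32 uncalled changes, 11 gained a call and 29 changed sign, none of them called. With thinned reads the sign turned for TNFRSF1B with ibrutinib for sgCTRL (-0.046), TNFRSF8 with ibrutinib for sgKLHL14 (-0.25) and averaged (-0.065), TNFRSF13B between guides in ibrutinib (-0.011) and CD40 in the difference in response (-0.031). Median scaling turned TNFRSF13B (-0.0010) and TNFRSF8 in the difference (0.0015). Voom turned TNFRSF13B (-0.0048), TNFRSF8 between guides in DMSO (-0.013) and in the difference (0.040). Over libraries left out, the ranges that crossed 0 were, with ibrutinib, CD40 (-0.032 to 0.073) and TNFRSF1B (-0.016 to 0.032) for sgCTRL and TNFRSF8 (-0.057 to 0.39) for sgKLHL14. Between guides in DMSO they were TNFRSF8 (-0.19 to 0.26) and BTK (-0.056 to 0.0065), and in ibrutinib CD70 (-0.15 to 0.055), TNFRSF13B (-0.038 to 0.043) and TNFRSF8 (-0.073 to 0.12). In the difference they were CD40 (-0.020 to 0.085), CD70 (-0.037 to 0.17) and TNFRSF8 (-0.23 to 0.21). TNFRSF1B with ibrutinib for sgKLHL14 passed with median scaling (adjusted p = 0.0471) and voom (0.0429), and averaged over guides without replicate 1 of sgKLHL14 DMSO (0.14, adjusted p = 0.0205). CD40 between guides in DMSO passed with thinned reads (0.34, adjusted p = 0.0256).

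Whether libraries with the same replicate number were paired is not given. Deviations of same-numbered libraries correlated at -0.055 to 0.12 across genes, which cannot show whether some genes share a replicate effect. The replicate block added calls for TNFRSF1B with ibrutinib for sgKLHL14 (0.17, adjusted p = 0.0402, limma), CD40 (0.27, adjusted p = 0.0300) and TNFRSF1B (0.25, adjusted p = 0.0306) between guides in DMSO, and changed no other call of a member. The planned negative binomial tests on recovered reads were not run, and fits on the groups compared cannot give averaged values or the difference in response. Depth limits TNFRSF9 (0 to 4 reads), TNFRSF8 (12 to 27) and CD27 in DMSO (34 to 73).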
